A study of Mus musculus with 8 samples.

Results

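The cathepsins are the proteases of the endosome and lysosome, and 10 of their genes (Ctsl, Ctss, Ctsk, Ctsb, Ctsc, Ctsf, Ctsh, Ctsz, Ctsa and Ctsd) were followed through sorted thymic epithelium of C57BL/6 mice. They were taken by name from the 27179 genes of the deposited count files, where Entrez gene numbers were matched to mouse symbols, and all 10 passed the filter on low counts that 18163 genes passed. The study sequenced polyadenylated RNA from cortical (cTEC) and medullary (mTEC) thymic epithelial cells of wild-type (WT) mice and of mice with a knock-out (KO) of Mcl1, which encodes a pro-survival protein of the BCL-2 family. There were 4 WT cTEC, 2 WT mTEC, 1 KO cTEC and 1 KO mTEC libraries, which the study describes as biological replicates. The promoter or Cre driver behind the knock-out, the ages of the mice and any pooling of mice were not given in the sources used here.

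Epithelial cells of the thymus show self peptides on MHC class II molecules to developing CD4 T cells. Cathepsins cut the invariant chain that fills the class II groove during transport, and they cut the endocytosed and autophagocytosed proteins whose peptides replace it. In the cortex the invariant chain is cut mainly by cathepsin L, whereas dendritic cells and most other antigen-presenting cells, and medullary epithelium, are known to use cathepsin S. The other members are lysosomal proteases of broad use: cathepsins B, C, F, H, K, L, S and Z are cysteine proteases of the papain family, cathepsin D is an aspartic protease and cathepsin A is a serine carboxypeptidase.

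Library totals ranged from 11516780 to 19171953 counts, and levels are given in CPM, the counts of a gene scaled to the total of its library. Mcl1 stood at 236, 308, 260.4 and 239.9 CPM in WT cTEC and at 8.36 CPM in KO cTEC. In WT mTEC it stood at 107 and 206 CPM and in KO mTEC at 75.6 CPM, below both WT libraries but far above the KO cTEC value (edgeR adjusted p = 0.538 for KO mTEC against WT mTEC). Psmb11, the cortical proteasome subunit, ranged from 146 to 414 CPM in WT cTEC against 10.3 and 12.2 CPM in WT mTEC, and Aire, the medullary regulator of self-antigen expression, reached 321 and 561 CPM in WT mTEC. Of 11 cTEC markers 7 were lower and none higher in WT mTEC; of 12 mTEC markers 5 were higher and 3 lower there, the 3 being Krt5, Krt14 and Ccl21a. Aire was also present in all 4 WT cTEC libraries, at 29.1 to 121 CPM, and had 0 counts in KO cTEC. WT cTEC libraries 2 to 4 stood apart from library 1 in 15 immediate-early genes, whose summed level was 29615, 20599 and 24351 CPM against 3506 CPM. This sum was 6763 CPM in KO cTEC, 2645 and 1712 CPM in WT mTEC and 3949 CPM in KO mTEC, and 12 of the 15 genes were called lower in WT mTEC than in WT cTEC and none in KO cTEC against WT cTEC (3 lower at an unadjusted p under 0.05 in edgeR, 1 by DESeq2, 0 by limma-voom). Its part in the differences of the cathepsins was not tested, and the results that move without these 3 libraries are given with both values.

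The promoters of the pair at the centre of the comparison are shown because they differ in which short motifs they hold. RefSeq promoter windows (build GRCm38.p6, mm10; 250 bases before to 50 after the start site, written 5′ to 3′ on the gene's strand) were available for 8 of the 10 members. Ctsl lies on the minus strand of chromosome 13 at chr13:64361890-64370772, and Ctss on the plus strand of chromosome 3 at chr3:95526786-95556405. Capitals mark the palindromic E-box CACGTG in the Ctsl window (chr13:64370471-64370770) and an interferon-stimulated response element core (GAAA, any 2 bases and GAAA again) in the Ctss window (chr3:95526536-95526835).
Ctsl: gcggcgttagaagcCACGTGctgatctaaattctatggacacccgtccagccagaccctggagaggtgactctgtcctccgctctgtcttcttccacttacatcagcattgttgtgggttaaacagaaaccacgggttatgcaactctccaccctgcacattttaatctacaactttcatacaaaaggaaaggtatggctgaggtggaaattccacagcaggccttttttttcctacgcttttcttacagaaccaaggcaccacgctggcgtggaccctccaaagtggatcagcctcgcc
Ctss: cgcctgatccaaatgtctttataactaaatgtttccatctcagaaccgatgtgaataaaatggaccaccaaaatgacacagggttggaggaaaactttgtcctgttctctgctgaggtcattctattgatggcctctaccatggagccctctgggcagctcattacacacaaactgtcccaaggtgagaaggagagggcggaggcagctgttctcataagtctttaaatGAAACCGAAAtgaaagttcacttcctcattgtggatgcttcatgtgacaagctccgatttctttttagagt
The E-box of Ctsl began 236 bases before the start site, and the interferon-type match of Ctss began 21 bases before it. Searched on both strands, CACGTG was present in 7.15% of the 32851 promoter windows of the same length and the interferon-type core in 3.44%.

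The E-box was also present in the windows of Ctsf, Ctsd and Ctsa, which are shown around a motif (capitals; the nearer site for Ctsd) because these 3 genes and Ctsl were the members with the higher mean in the WT cortex that had a window. The sites began 79 bases before the start in Ctsf, 245 and 98 bases before it in Ctsd and 12 bases before and 5 bases after it in a second start window of Ctsa.
Ctsf: caccccgtggtcCACGTGcctcgcgtaaat
Ctsd: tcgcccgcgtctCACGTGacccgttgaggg
Ctsa: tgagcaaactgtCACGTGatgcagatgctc
The windows of Ctss, Ctsk, Ctsz and Ctsc, whose means were higher in the WT medulla, held no CACGTG. Neither did the first start window of Ctsa, whose mean was higher in the WT cortex. In all, 9 motifs were searched, and they were chosen after the levels were known. TATAAA was found in Ctss (13.6% of all windows), GAGGAA, a core of PU.1-type ETS sites, in Ctsc, Ctsk and Ctss (28.3%), GGGCGG in Ctsc, Ctsd, Ctsf, Ctss and Ctsz (35.7%), and CCAAT in Ctsf and Ctsz (37.4%). Not found in any member were CACGTG with GT before it and AC after it (0.326% of all windows) and the AP-1 motif TGANTCA (7.81%). A fixed NF-κB-type sequence, with no variable bases, was not found either (0.155% of all windows). Other forms of the NF-κB site were not searched. A match describes the letters of the window and is not a binding site.

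Ctsl, the cathepsin of the cortex, was the most abundant member in every WT cTEC library. It stood at 5240.2, 3146, 3844 and 2128 CPM in WT cTEC libraries 1 to 4, at 3429 CPM in KO cTEC, at 872 and 562 CPM in WT mTEC and at 780.0 CPM in KO mTEC. Every cTEC library, WT or KO, was above every mTEC library. The WT cTEC mean was 5.01 times the WT mTEC mean, and the fitted difference of WT mTEC against WT cTEC was -2.26 ± 0.38 on the log2 scale (SE; edgeR adjusted p = 0.00575).

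Ctss had the opposite order. Its levels were 105, 49.1, 40.7 and 48.9 CPM in WT cTEC, 260.5 and 318 CPM in WT mTEC, 231 CPM in KO mTEC and 1.89 CPM in KO cTEC. The mTEC libraries were all above the cTEC libraries, WT cTEC library 1 was the highest of the cortical libraries, and the KO cTEC library was far below the other 7. The WT mTEC mean was 4.75 times the WT cTEC mean (log2 difference 2.30 ± 0.33 SE, edgeR adjusted p = 0.00324). Without WT cTEC libraries 2 to 4 the log2 difference was 1.50 ± 0.21 for Ctss and -2.82 ± 0.27 for Ctsl, with the spread then taken from the WT mTEC libraries alone. Leaving out WT mTEC library 2 gave an adjusted p of 0.0765 for Ctsl and 0.0411 for Ctss.

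**Figure D1:**
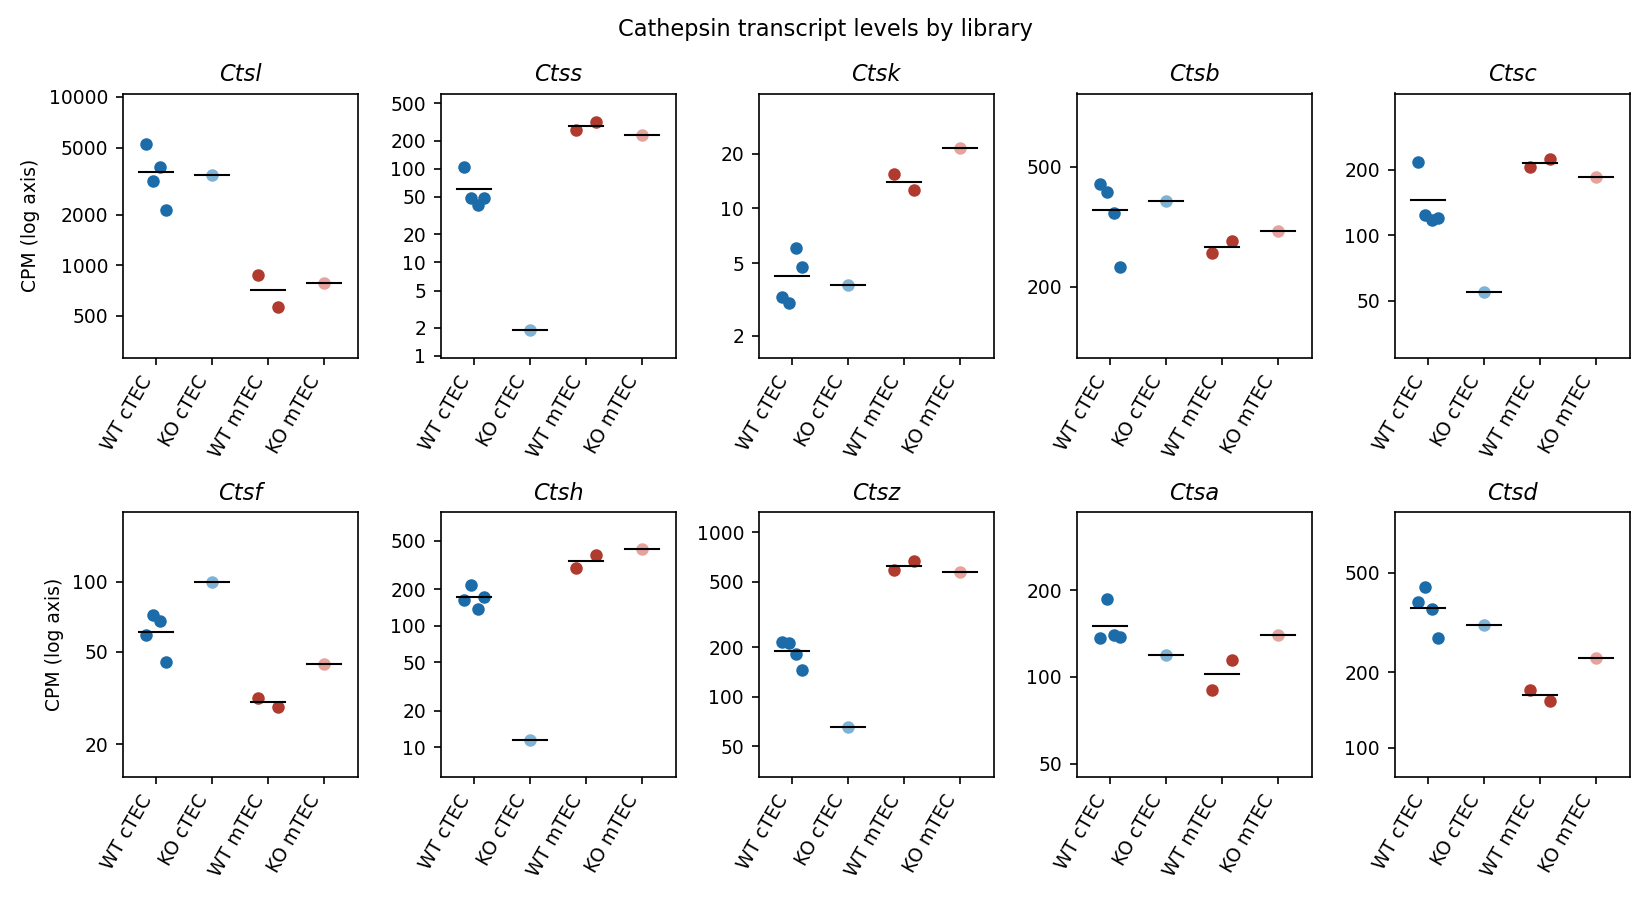
Level of each cathepsin in CPM (counts scaled to the library total; log axis with its own range in each panel) in the 8 libraries of the 4 groups; points are libraries and bars are group means. Ctsl lies between 2128 and 5240.2 CPM in WT cTEC and at 562 and 872 CPM in WT mTEC, and Ctss is at 1.89 CPM in the KO cTEC library.

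Scaled by transcript length, the ratio of Ctsl to Ctss within a library, which needs no scaling between libraries, was 34.4, 44.1, 65.0 and 29.9 in WT cTEC and 2.30 and 1.21 in WT mTEC. Ctsl was thus the more abundant transcript of the pair in all 6 WT libraries, the medulla included, where CPM per kilobase was 442 and 285 for Ctsl against 192 and 235 for Ctss. The ratio was 1245 in KO cTEC and 2.32 in KO mTEC. On the log2 scale it averaged 5.37 ± 0.49 (SD, n = 4) in WT cTEC and 0.74 ± 0.65 (SD, n = 2) in WT mTEC, a difference of -4.63. The exact two-sided permutation test gave p = 0.133, the smallest that the 15 splits of 6 libraries allow.

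**Figure D2:**
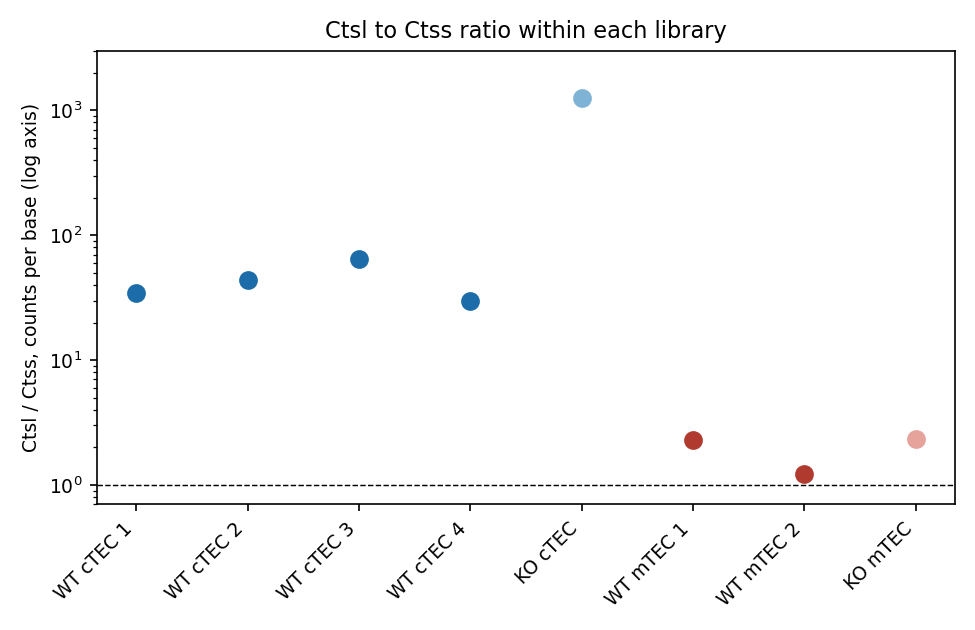
Ratio of Ctsl to Ctss counts per base of transcript (log axis) in each of the 8 libraries, with a dashed line at equal levels. The 4 WT cTEC libraries lie between 29.9 and 65.0, the 3 mTEC libraries between 1.21 and 2.32, and the KO cTEC library at 1245.

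Across all 10 members, 7 differed between the WT populations (edgeR, Benjamini-Hochberg adjusted p under 0.05), where 27% of all genes tested did. Higher in WT mTEC were Ctss, Ctsk, Ctsh and Ctsz, and lower were Ctsl, Ctsf and Ctsd; 13.2% of all genes were called higher and 13.9% lower. Ctsb, Ctsc and Ctsa did not pass. The median log2 difference over the 10 was 0.14, and over all genes 0.06. The summed level of 11 fibroblast markers moved with this comparison, at 764 to 1053 CPM in WT cTEC and 199 and 222 CPM in WT mTEC, with 3 called lower. Its largest term was Dcn, at 568 to 844 CPM in WT cTEC and 100 to 122 CPM in WT mTEC. The WT mTEC means of Pdgfrb, Thy1 and Col1a1 went the other way, at 2.56, 1.72 and 1.09 times the WT cTEC means. The part of fibroblast markers in the cathepsin differences was not tested.

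Among the other cysteine endopeptidases, Ctsk, the collagen-degrading cathepsin best known from osteoclasts, was the least abundant member in every group except KO cTEC, where Ctss was lower. It stood at 3.26, 3.01, 6.05 and 4.75 CPM in WT cTEC, 3.79 CPM in KO cTEC, 15.5 and 12.6 CPM in WT mTEC and 21.4 CPM in KO mTEC. The mTEC libraries were all above the cTEC libraries, and WT mTEC was higher by 1.76 ± 0.37 on the log2 scale (edgeR adjusted p = 0.0125). Ctsk is the neighbour of Ctss on chromosome 3, with 17398 bases and the predicted gene Gm40096 between them. The call for Ctsk did not hold without either WT mTEC library (adjusted p = 0.113 and 0.0761).

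Ctsb, an endopeptidase that also trims dipeptides from carboxyl ends, was close in the populations. Its levels were 437, 411, 352 and 232 CPM in WT cTEC, 386 CPM in KO cTEC, 259 and 283 CPM in WT mTEC and 306 CPM in KO mTEC. WT cTEC library 4 was below both WT mTEC libraries, so the groups overlapped, and the log2 difference of -0.35 ± 0.24 did not pass (edgeR adjusted p = 0.303). Ctsf, which can also process the invariant chain in macrophages, was at 59.2, 72.0, 67.5 and 45.01 CPM in WT cTEC, 99.4 CPM in KO cTEC, 31.6 and 29.1 CPM in WT mTEC and 44.5 CPM in KO mTEC. It was lower in both WT mTEC libraries than in any cTEC library (-0.95 ± 0.22, adjusted p = 0.016), a call that did not hold without either WT mTEC library (adjusted p = 0.0857 and 0.154).

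Ctsz, a carboxypeptidase, stood at 214, 211, 183 and 146 CPM in WT cTEC, 65.2 CPM in KO cTEC, 590.4 and 664 CPM in WT mTEC and 571 CPM in KO mTEC. The mTEC libraries did not overlap the cTEC libraries, and WT mTEC was higher by 1.78 ± 0.17 (edgeR adjusted p = 0.00101). Ctsh, an aminopeptidase, was at 162, 218, 138 and 173 CPM in WT cTEC, 11.4 CPM in KO cTEC, 297 and 386 CPM in WT mTEC and 433 CPM in KO mTEC. Its WT mTEC level was higher by 1.03 ± 0.19 (adjusted p = 0.00838, and 0.0965 without WT mTEC library 2).

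Ctsc, the dipeptidyl peptidase that activates the serine proteases of lymphoid and myeloid granules, was at 216, 124, 118 and 120.2 CPM in WT cTEC, 54.7 CPM in KO cTEC, 205 and 223 CPM in WT mTEC and 185 CPM in KO mTEC. WT cTEC library 1 lay inside the WT mTEC range and the other 3 lay below it. The difference of 0.62 ± 0.25 did not pass with all libraries (edgeR adjusted p = 0.096) and did without WT cTEC library 1 (0.86 ± 0.13, adjusted p = 0.00192), while without libraries 2 to 4 it was 0.02 ± 0.19 (adjusted p = 0.94).

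The aspartic and serine members were higher on average in the cortex. Ctsd, the main aspartic protease of lysosomes, stood at 382, 437, 358 and 275 CPM in WT cTEC, 310.2 CPM in KO cTEC, 171 and 153 CPM in WT mTEC and 228 CPM in KO mTEC. The mTEC libraries, KO included, were all below the cTEC libraries, and the log2 difference between the WT groups was -1.11 ± 0.21 (edgeR adjusted p = 0.00764; 0.0523 and 0.0985 without either WT mTEC library). Ctsa, the carboxypeptidase that also protects β-galactosidase and neuraminidase in the lysosome, was at 136, 187, 140.0 and 138 CPM in WT cTEC, 119 CPM in KO cTEC, 90.1 and 114 CPM in WT mTEC and 139.5 CPM in KO mTEC. The WT groups did not overlap, yet the difference of -0.51 ± 0.19 did not pass (adjusted p = 0.0737). Among the members, the WT ranges of Ctsb and Ctsc overlapped. How many of all genes have separate WT ranges was not counted.

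Ctsb, Ctsz and Ctsa overlap neighbouring counted genes (Fdft1 for Ctsb, Nelfcd for Ctsz, Neurl2 and Pltp for Ctsa), and whether strand was used in counting was not given in the sources used here, so reads in the overlaps cannot be assigned with certainty. On mm10 (RefSeq GRCm38.p6), Ctsk lies at chr3:95499210-95509387, Ctsb at chr14:63122462-63145923, Ctsc at chr7:88278024-88315861 and Ctsf at chr19:4855165-4860918. Ctsh lies at chr9:90054267-90076095, Ctsz at chr2:174427494-174439039, Ctsa at chr2:164832872-164841032 and Ctsd at chr7:142375910-142387827.

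Compared per kilobase of transcript, Ctsl made up 71.7% ± 5.67 (SD, n = 4) of the 10 cathepsins in WT cTEC, from 66.3% to 77.4%. The next most abundant there were Ctsd at 7.72%, Ctsz at 5.60% and Ctsh at 4.61%. In WT mTEC no member held such a share: Ctsz made up 29.7% ± 2.47 (SD, n = 2), Ctsl 24.0% ± 7.33, Ctss 14.1% ± 1.98 and Ctsh 13.9% ± 2.55. In mean CPM per kilobase the WT mTEC order was Ctsz at 450.3, Ctsl at 364, Ctss at 213 and Ctsh at 211. Ctsz and Ctsl changed places between the WT mTEC libraries (424 and 442 in library 1, 477 and 285 in library 2), so these neighbours were not separated beyond their spread, and neither were Ctss and Ctsh.

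The summed CPM of the 10 genes was 6954, 4859, 5246 and 3311 in WT cTEC and 2792 and 2745 in WT mTEC, the cortical libraries all being higher. Without Ctsl the sums were 1714, 1712, 1403 and 1183 in WT cTEC and 1920 and 2183 in WT mTEC, the medullary libraries then being higher. The KO mTEC library resembled WT mTEC in make-up, with Ctsz at 26.1%, Ctsl at 25.1%, Ctsh at 16.9% and Ctss at 10.8%. In KO cTEC, Ctsl reached 81.2%, while Ctss was at 0.0652% and Ctsh at 0.329%.

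**Figure D3:**
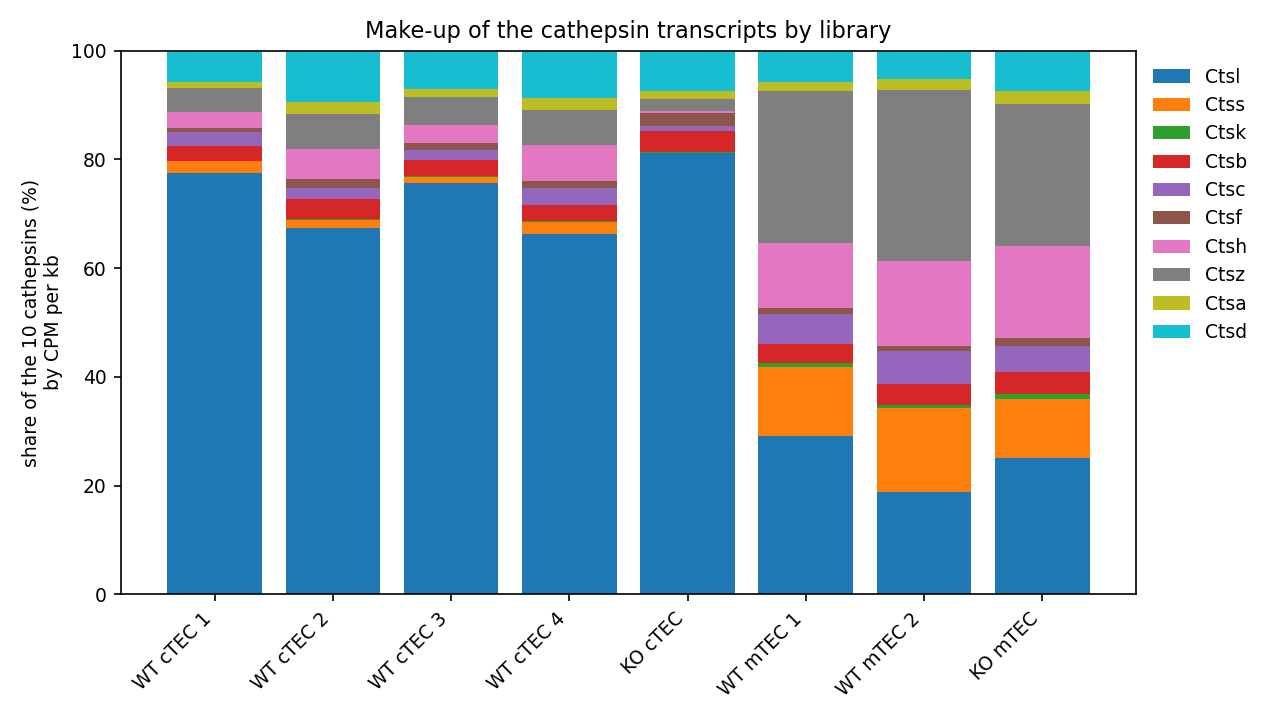
Share of each member (%) in the summed CPM per kilobase of the 10 cathepsins, 1 stacked bar per library. Ctsl holds 66.3% to 77.4% in WT cTEC and 18.8% and 29.2% in WT mTEC, where Ctsz, Ctss and Ctsh take larger shares.

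The Mcl1 knock-out was first compared with WT in the cortex. The KO cTEC library held much less Ctss and Ctsh transcript than WT cTEC and less Ctsz and Ctsc, whereas Ctsl stayed within its WT range. In the KO cTEC library Ctss was at 3.11% of its WT cTEC mean, Ctsh at 6.61%, Ctsz at 34.6% and Ctsc at 37.8%. These 4 fell, and none of the 10 rose, in the edgeR fit, where 12.4% of all genes were called lower and 5.1% higher (17.5% in all). At an unadjusted p under 0.05 Ctsf was higher as well, and DESeq2 and limma-voom each called 4 members. The KO cTEC group is 1 library, which the fit assumes to vary like the WT libraries. In libraries of bulk RNA, fewer cells of a kind and less RNA per cell cannot be told apart.

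Ctss, at 29 counts or 1.89 CPM (exact 95% Poisson interval 1.27 to 2.72, counting error only), fell by 4.99 ± 0.67 on the log2 scale (edgeR adjusted p = 0.00188). Ctsh, at 175 counts or 11.4 CPM (interval 9.80 to 13.3), fell by 3.92 ± 0.35 (adjusted p = 0.000288). Ctsz fell by 1.53 ± 0.26 (adjusted p = 0.00538). Each was below all 4 WT cTEC libraries. Ctsc fell by 1.40 ± 0.36 (adjusted p = 0.0316), a call lost when either WT mTEC library was left out of the shared spread (adjusted p = 0.06 and 0.0581).

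Ctsl, at 3429 CPM, lay between the WT cTEC libraries, and its fitted change was -0.06 ± 0.44 (edgeR adjusted p = 0.942). Without WT cTEC library 1 the change was 0.16 ± 0.36, and without libraries 2 to 4 it was -0.67 ± 0.33 (adjusted p = 0.146). Ctsk, Ctsb and Ctsd also lay within the WT cTEC range, with changes of -0.18 ± 0.52, 0.11 ± 0.30 and -0.23 ± 0.26. Ctsa, at 119 CPM, was below all 4 WT libraries by a small margin (-0.34 ± 0.24, adjusted p = 0.368). Ctsf, at 99.4 CPM, was above all 4 (0.70 ± 0.26, adjusted p = 0.0963). Without WT cTEC libraries 2 to 4, which leaves 1 library in each cortical group, its change was 0.69.

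In the medulla no member passed. KO mTEC against WT mTEC gave 0 calls among the 10 by edgeR, 0 at an unadjusted p under 0.05, 0 by DESeq2 and 0 by limma-voom, and edgeR called 0% of all genes. Mcl1 itself was below both WT mTEC libraries here without passing the test. The fitted changes ran from -0.29 ± 0.49 for Ctss to 0.63 ± 0.53 for Ctsk. Ctss, Ctsc and Ctsz were below both WT mTEC libraries, at 79.8%, 86.3% and 91.1% of the WT mTEC mean. Ctsk, Ctsf, Ctsd, Ctsa, Ctsh and Ctsb were above both, and Ctsl lay between them. Summed fibroblast markers (11 genes, Col1a1 among them) moved with this library too, at 1177 CPM against 199 and 222 CPM in WT mTEC, and their part in the level of Ctsk, which fibroblasts also express, was not tested.

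The KO effect itself differed between the populations for 3 of the 10 members, against 6.81% of all genes (6.16% higher and 0.644% lower in mTEC relative to cTEC). Taken as the KO effect in mTEC minus that in cTEC, the difference was 4.70 ± 0.78 for Ctss (edgeR adjusted p = 0.00915), 4.30 ± 0.42 for Ctsh (adjusted p = 0.001) and 1.43 ± 0.35 for Ctsz (adjusted p = 0.0469). For Ctsc it was 1.22 ± 0.49 (adjusted p = 0.215) and for Ctsl 0.20 ± 0.66 (adjusted p = 0.915). With limma-voom the Ctsh difference alone passed, with adjusted p = 0.182 for Ctss and 0.108 for Ctsz. The Ctsz call was also lost with RLE size factors and with no filter on low counts (adjusted p = 0.0501 and 0.0511).

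**Figure D4:**
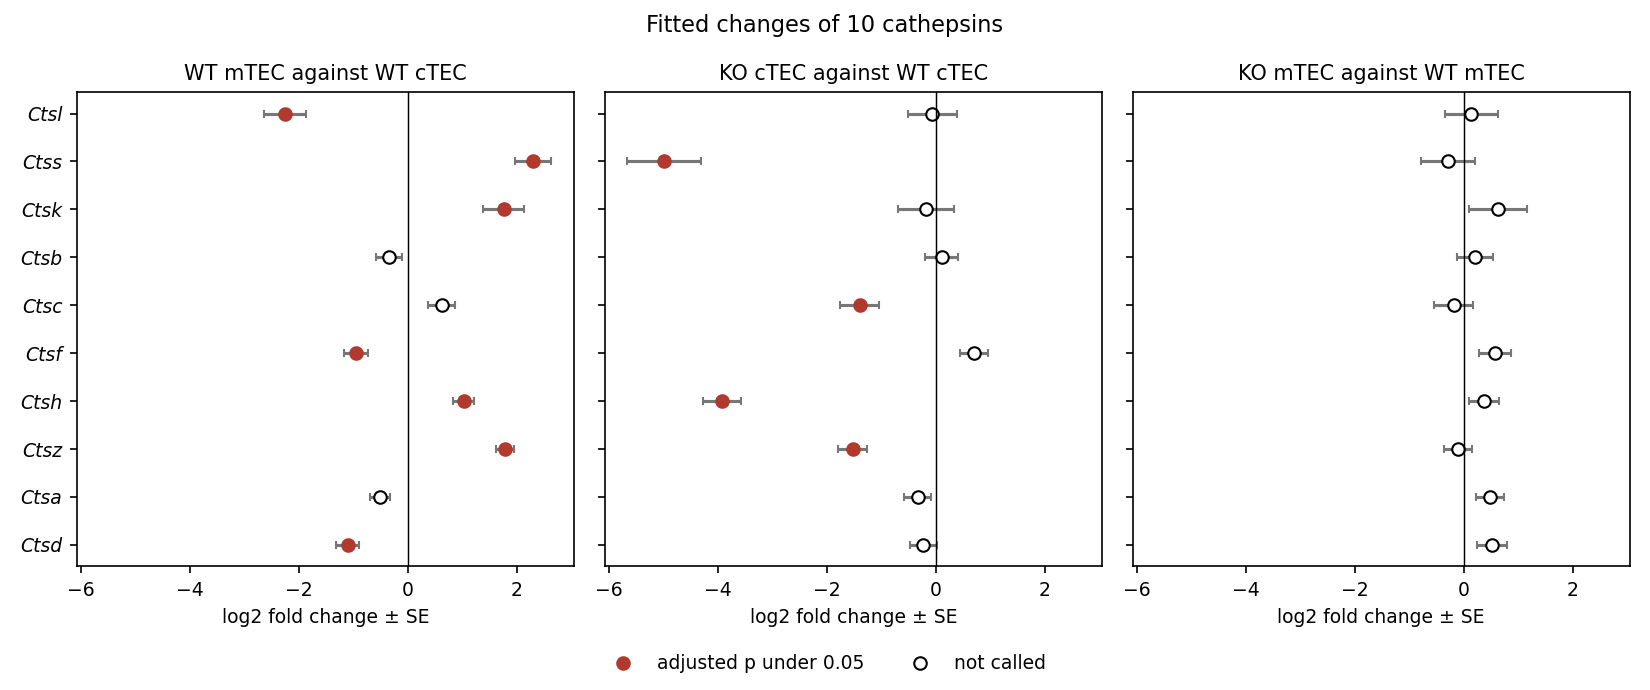
Log2 fold change ± SE of the 10 cathepsins from the edgeR fit in 3 comparisons; filled points passed an adjusted p of 0.05. In WT mTEC against WT cTEC 7 members passed, in KO cTEC against WT cTEC Ctss, Ctsh, Ctsz and Ctsc were lower, and in KO mTEC against WT mTEC none passed.

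Markers of medullary epithelium moved with the 4 cathepsins that fell. Of 12 mTEC markers 9 were called lower in KO cTEC (12.4% of all genes were), Ccl21a, which was lower in WT mTEC than in WT cTEC, among them, and their summed level was 2786 CPM there against 4311 to 5295 CPM in WT cTEC, 4048 and 4397 CPM in WT mTEC and 4709 CPM in KO mTEC. Fezf2, a second regulator of medullary self-antigens, went from 86.4 to 124 CPM in WT cTEC to 0.326 CPM in KO cTEC, and Aire was at 0. Of 11 cTEC markers 3 were higher and none lower in KO cTEC, with Psmb11 at 763 CPM, and fibroblast markers summed to 1134 CPM there, with 2 of 11 called higher. The part of medullary cells or transcripts in the WT cTEC levels of Ctss, Ctsh, Ctsz and Ctsc was not tested.

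Dendritic cells and macrophages are rich in Ctss, and the summed levels of their markers and of those of B cells were high and low in the same groups as Ctss. Of 17 tested dendritic cell and macrophage markers none was called lower in WT mTEC. Flt3, Xcr1 and Tyrobp (WT cTEC means 0.938, 0.664 and 0.445 CPM) passed the filter on low counts only with the mTEC libraries. No count of higher calls is therefore given. In KO cTEC 7 of the 17 were lower and none higher, against 12.4% of all genes called lower. The summed level of the 20 listed genes was 288 to 405 CPM in WT cTEC, 111 CPM in KO cTEC, 929 and 1262 CPM in WT mTEC and 802 CPM in KO mTEC. Its largest term outside KO cTEC was Lyz2, the lysozyme of myeloid cells, at 123 to 232 CPM in WT cTEC, 9.40 CPM in KO cTEC and 702 and 1009 CPM in WT mTEC. In WT mTEC, Fcer1g was at 46.8 and 52.8 CPM (2.90 to 16.4 CPM in WT cTEC) and Csf1r at 9.23 and 16.6 CPM. Csf1r was called higher than in WT cTEC (2.15 ± 0.39, edgeR adjusted p = 0.00707). Cd14, at 55.7 and 56.1 CPM in WT mTEC, lay within its WT cTEC range of 39.8 to 71.6 CPM. Zbtb46, at 20.4 and 20.3 CPM in WT mTEC, lay within its WT cTEC range of 11.3 to 26.4 CPM. Itgam and Mpeg1 in WT mTEC lay within their WT cTEC ranges too. Itgax was at 2.26 CPM or less and Clec9a at 0.626 CPM or less in all 8 libraries, and Sirpa was highest in KO cTEC, at 82.7 CPM. Adgre1, Flt3, Clec9a, Xcr1, Fcgr1 and Mpeg1 were at 0 in KO cTEC. Their WT cTEC means were 0.841, 0.938, 0.0376, 0.664, 0.0973 and 7.88 CPM, so all but Mpeg1 were near the floor there too. The pan-leukocyte gene Ptprc was not higher in WT mTEC (7.98 and 12.6 CPM) than in WT cTEC (7.21 to 20.6 CPM). Summed B cell markers (8 genes) were at 11.9 to 33.3 CPM in WT cTEC, 1.04 CPM in KO cTEC, 51.4 and 66.9 CPM in WT mTEC and 78.4 CPM in KO mTEC. The part of such cells in the Ctss levels was not tested.

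**Figure D5:**
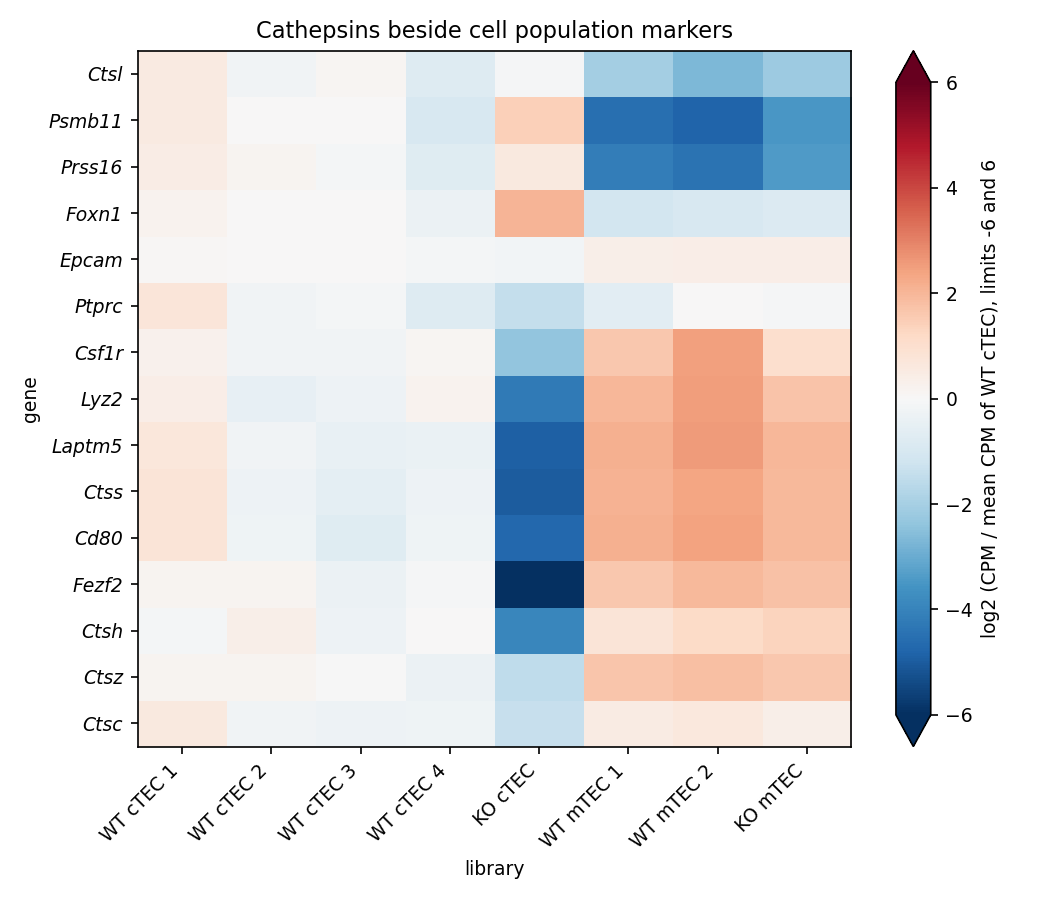
Colour map of log2 (CPM / mean CPM of WT cTEC) for 5 cathepsins and 10 other genes (rows) in the 8 libraries (columns), with the colour scale held between -6 and 6. Laptm5 and Cd80 were among the genes nearest to Ctss in pattern over these same libraries. Ctss, Ctsh, Ctsz and Ctsc are low in the KO cTEC column together with Fezf2, Cd80, Lyz2 and Laptm5, whereas Ctsl stays near its WT cTEC level there.

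The genes whose pattern over the 8 libraries was nearest to each of the pair were ranked by the root mean square difference of centred log2 CPM, among tested genes with an average log2 CPM of at least 3. Nearest to Ctsl were Cyp1b1 at 0.19, F2r and Gucy1a2 at 0.22, Ndrg3 at 0.24 and Angpt1 at 0.25, where Ctsl itself spanned 3.19 on this scale. Nearest to Ctss were Laptm5, a lysosomal membrane protein of leukocytes, at 0.0910, the costimulatory receptor gene Tnfrsf9 at 0.20, Atp8b4 at 0.22, and Cd80 and Gsta2 at 0.25, where Ctss spanned 7.30. Laptm5 stood at 184, 99.5, 84.4 and 86.5 CPM in WT cTEC, 3.85 CPM in KO cTEC, 494 and 666 CPM in WT mTEC and 448 CPM in KO mTEC. Its likeness to Ctss follows from the ranking that picked it in these same libraries.

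Genes whose products work beside the cathepsins were counted against the same backgrounds, 27% of all genes called between the WT groups (13.2% higher, 13.9% lower) and 17.5% in KO cTEC (5.1% higher, 12.4% lower). Of 14 other lysosomal and thymic proteases and their helpers, 4 were higher and 5 lower in WT mTEC (median log2 difference -0.28, all genes 0.06). Prss16, the thymus-specific serine protease of cortical epithelium, was lower, with a log2 difference of -4.21 ± 0.36 (edgeR adjusted p = 0.000783). Psap, the precursor of the saposins, was lower too, with a log2 difference of -1.49 ± 0.20 (adjusted p = 0.00263). Ifi30, the thiol reductase that opens disulphide bonds before cathepsins cut, was higher by 1.67 ± 0.22 (adjusted p = 0.00245). Lgmn, the asparaginyl endopeptidase that matures several cathepsins, did not pass (-0.42 ± 0.21, adjusted p = 0.171). In KO cTEC 3 of the 14 were lower, among them Prcp at -1.29 and Cpq at -1.23, and none was higher, a count near the background; Prss16 was at 0.61 ± 0.35 (adjusted p = 0.271).

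Of 17 cathepsin inhibitors 13 were tested, and none was called lower in WT mTEC. Stfa1 and Stfa3, called higher there, were at 0.301 CPM or less in every cTEC library. They passed the filter on low counts only through the mTEC libraries, so no count of higher calls is given. Cst6, a cystatin that also inhibits legumain, was higher by 1.49 ± 0.44 (edgeR adjusted p = 0.0415), and Serpinb1a, an intracellular serpin that inhibits neutrophil-type proteases, by 0.80 ± 0.14 (adjusted p = 0.00628). The abundant cystatin gene Cst3 was near level (0.14 ± 0.15, adjusted p = 0.527). In KO cTEC 4 inhibitors fell and 1 rose. Serpinb1a fell from 572 to 675 CPM in WT cTEC to 15.9 CPM (log2 change -5.29 ± 0.27, adjusted p = 7.04e-05), Cst6 by 4.33 ± 0.84 (adjusted p = 0.0108) and Serpina3g, a serpin known to inhibit cathepsins, by 3.89 ± 0.43 (adjusted p = 0.000801). Cstb, the cytosolic cystatin B, rose by 1.13 ± 0.28 (adjusted p = 0.0268). The KO effect differed between mTEC and cTEC by 5.06 ± 0.31 for Serpinb1a, 4.95 ± 1.01 for Cst6 and 4.00 ± 0.52 for Serpina3g (adjusted p = 0.00019, 0.0247 and 0.00311).

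The class II genes whose products the cathepsins serve were higher in the medulla for 6 of 13 and lower for none (median 0.59). H2-Oa, a chain of the modulator of H2-DM, was higher by 2.09 ± 0.49 (edgeR adjusted p = 0.0189), H2-DMb2 by 0.86 ± 0.23 and H2-Aa by 0.80 ± 0.19. Cd74, the invariant chain gene itself, was higher by 0.73 ± 0.21 (adjusted p = 0.0365), from 9239 to 14883 CPM in WT cTEC to 17714 and 20343 CPM in WT mTEC. In KO cTEC, Cd74 was at 11177 CPM (-0.09 ± 0.28, adjusted p = 0.849), and 2 of the 13, Rfxap at 0.98 and H2-DMa at 0.82, were higher. In that library Ctss was thus below every WT library, while Cd74 lay within the WT cTEC range.

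Of 16 subunits of the proton pump that acidifies lysosomes, 5 were higher and none lower in WT mTEC (median 0.39). Among all genes 13.2% were called higher and 13.9% lower, 27% in all. Those higher included Atp6v0e at 1.19, Atp6v1c1 at 0.77 and Atp6v1d at 0.67. In KO cTEC Atp6v1c1 alone was lower (-1.55 ± 0.23, edgeR adjusted p = 0.00299). Of 14 genes of mannose 6-phosphate sorting, which carries newly made cathepsins to the lysosome, 1 was higher and 6 lower in WT mTEC (median -0.51), with Gga2 at -1.71, Nagpa at -1.37 and Gga1 at -1.27. In KO cTEC, Gga2 was higher (1.00 ± 0.22) and Gga3 lower (-0.94 ± 0.23).

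Of 25 lysosomal membrane genes, hydrolases and regulators, 2 were higher and 6 lower in WT mTEC (median -0.33), and 1 was higher and 4 lower in KO cTEC, counts near the shares of all genes called (27% and 17.5%). Laptm4a (-2.45 ± 0.20) was lower, and Laptm5 was higher (2.40 ± 0.30, edgeR adjusted p = 0.00194). Those lower in KO cTEC included Laptm5 (-4.87 ± 0.58), Gusb (-1.56 ± 0.21) and Npc2 (-1.27 ± 0.28). Tfeb, the transcription factor of lysosomal genes whose known target motif contains CACGTG, was at 12.5 to 17.97 CPM in WT cTEC and 15.1 and 18.6 CPM in WT mTEC and did not pass (0.16 ± 0.26, adjusted p = 0.676). No gene of these lists passed in KO mTEC by edgeR; at an unadjusted p under 0.05, 1 protease, 1 sorting gene and 1 lysosomal membrane gene were higher and 2 proteases lower, DESeq2 called 1 of the 25 lysosomal genes, and limma-voom called none.

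Of 13 further cathepsin genes, 8 were tested, and Ctso, a broadly expressed cysteine cathepsin, was the abundant one among them. It did not pass in any comparison, with a log2 difference of -0.11 ± 0.28 between the WT populations (edgeR adjusted p = 0.793) and of 0.04 ± 0.36 in KO cTEC (adjusted p = 0.959). The 8 include 5 with counts at or near 0 in cTEC that passed the filter through the mTEC libraries alone, so no count of calls is given for them. No count is given for KO cTEC against WT cTEC either, where those 5 were at or near 0 in both groups and could hardly be called.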

How the data were processed

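RNA from sorted thymic epithelium was amplified and sequenced as 75-base paired-end reads. The deposited values are raw counts per Entrez gene, made by the authors with featureCounts on mm10, per the submitters' processing notes; the deposited gene length in bases was used for CPM per kilobase. Of 27179 gene numbers 25275 matched a symbol. CPM are counts over the library total. A series-wide table with 8 sample columns whose names match no label was not used. Genes with at least 1 CPM in at least 2 libraries (18163) were fitted with edgeR 4.0.16 (R 4.3.3; TMM, robust quasi-likelihood, 1 mean per group over all 8 libraries, 4 residual degrees of freedom), two-sided, with Benjamini-Hochberg adjustment over all genes tested and a call at 0.05. DESeq2 1.42.0, limma-voom (limma 3.58.1), RLE factors, no filter, other sets of libraries and a replicate block were alternatives. The ratio test used scipy 1.17.1. The fit was tried on simulated counts with the same dispersion for every gene. Changes were planted in WT mTEC and only WT mTEC against WT cTEC was checked, so the KO comparisons were not covered.

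The 10 members and the gene lists were chosen with earlier results of these data known. All members are named; from each list, up to 3 called genes with the largest change and an average log2 CPM of at least 3 are named per comparison, plus Prss16, Lgmn, Ifi30, Cd74, Cst3, Cstb, Psap and Tfeb. 1 gene that this rule would name is not reported here. P-values measure the spread between the deposited libraries.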

Additional observations from a re-analysis of the deposited data

Results flagged for a closer look

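In WT cTEC, 3 members had a library far from the other 3, among the 10 groups of 4 libraries examined; chance alone marks about 1 in 20 such groups. The highest library was library 1 for Ctss (105 CPM) and Ctsc (216 CPM) and library 2 for Ctsa (187 CPM). WT cTEC library 1 was also the highest WT cTEC library in Aire (121 CPM), H2-Oa (193 CPM) and Laptm5 (184 CPM). Yet it was the lowest of them in the summed mTEC markers (4311 CPM) and the highest in the summed cTEC markers (6062 CPM) and Ctsl (5240.2 CPM). In the summed immediate-early genes it was the lowest (3506 CPM).

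The KO effect differed between mTEC and cTEC in the test of the difference itself for Ctss (4.70 on the log2 scale), Ctsh (4.30) and Ctsz (1.43). Each KO group is 1 library.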

How the results depend on the processing

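Over the named results and their alternatives with a test, 423 values kept direction and side of the threshold, 18 lost a call, 9 gained 1 and 10 reversed; none of the reversed changes was called. Leaving out 1 WT library at a time, 2 to 9 members were called in WT mTEC against WT cTEC: without WT mTEC library 1, 4 (Ctsl, Ctss, Ctsh and Ctsz; 6.5% of all genes), and without library 2, 2 (Ctss and Ctsz; 3.42%). The range was 3 to 4 in KO cTEC, 0 to 0 in KO mTEC and 2 to 4 for the difference of KO effects, for which limma-voom called 1 member; the WT mTEC minus WT cTEC difference of the log2 ratio of Ctsl to Ctss ranged from -5.09 to -4.17. Leaving out 1 WT mTEC library leaves that group with 1 library, assumed to vary like the others.

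Reversed in KO cTEC were Ctsl (0.0061 with limma-voom), Ctsk (0.16) and Ctsb (-0.24 without WT cTEC 2 to 4, for both), and, leaving out 1 library, Ctsl (-0.22 without WT cTEC 4 to 0.16 without WT cTEC 1), Ctsk (-0.32 without WT cTEC 2 to 0.038 without WT cTEC 3) and Ctsb (-0.030 without WT cTEC 4 to 0.21 without WT cTEC 1). In KO mTEC Ctsl ranged from -0.18 (without WT mTEC 2) to 0.55 (without WT mTEC 1). In the difference Ctsl ranged from -0.12 (without WT mTEC 2; -0.022 without WT cTEC 1) to 0.61 (without WT mTEC 1), and Ctsb from -0.0023 (without WT cTEC 1) to 0.25 (without WT cTEC 4). The cause was not tested.

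Calls over all genes moved from 4912 to 3176 without WT cTEC 3, 1162 without WT mTEC 1 and 603 without WT mTEC 2; in KO cTEC from 3179 to 1735 (limma-voom) and 6078 (without WT cTEC 2 to 4); in KO mTEC from 0 to 141 (DESeq2), 7 (without WT cTEC 1) and 734 (without WT cTEC 2 to 4); and for the difference from 1236 to 2041 (DESeq2), 117 (limma-voom), 649 and 668 (without WT mTEC 1 or 2) and 4110 (without WT cTEC 2 to 4).

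The WT groups share the replicate numbers 1 and 2. Same-numbered libraries did not deviate together (r = -0.146 and -0.019 across genes), so the numbers were not taken to pair them. With the replicate block 7 members and 1985 of all genes were called in WT mTEC against WT cTEC. The KO libraries carry no number, so no block could be fitted for the KO comparisons. Ctss in KO cTEC rests on 29 counts.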

Other observations

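The cathepsins of mouse placenta, a rodent family of Ctsl relatives, were detected in the medulla. These 8 genes (Cts3, Cts6, Cts7, Cts8, Ctsj, Ctsm, Ctsq and Ctsr) were singled out after their values were seen. They summed to 148 and 257 counts in WT mTEC, 29 in KO mTEC, 2 in WT cTEC library 4 and 0 in the other cTEC libraries, where 3 counts correspond to 0.164 to 0.226 CPM. Of the 8, 7 and 8 had a count in the WT mTEC libraries and 2 in KO mTEC.

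Ctsj, at 40 and 111 counts in WT mTEC, and Ctsq, at 42 and 48 counts, had 0 counts in every other library, KO mTEC included. Cts7 (23 and 33 counts) did too, and Cts6 had 29 and 34 counts in WT mTEC and 6 in KO mTEC. Ctsr went the other way, with 4 and 5 counts in WT mTEC and 23 of the 29 counts in KO mTEC. Ctsg, the granule protease cathepsin G, had 22 and 38 counts in WT mTEC, 25 in KO mTEC and 0 in cTEC. No test is given for these genes, since they could pass the filter on low counts only through mTEC. The placental genes are close in sequence, so the split of reads among them is uncertain.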
